A study of Mus musculus with 32 samples.

Results

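Clone 3 is one of 5 single-cell-derived pre-B-cell clones whose rearranged Igκ repertoire was sequenced after 48 h without IL-7, and it is compared here with clones 4, 8, B52 and E93. The comparison takes the clone 3 library and the 4 other clone libraries from the 10 repertoire (VJ-seq) libraries and 32 samples of the series, and every value is a read count for one of 112 Vκ segments on the B6 or the Cast allele. All 5 clones came from bone marrow of F1 female mice, 8 to 12 weeks old, of a cross of C57BL/6 (B6) with wild-type M. castaneous (Cast). Cells were selected with IL-7 on irradiated ST2 feeder cells and cloned by limiting dilution, and IL-7 was then removed to start rearrangement. Each clone is the progeny of 1 cell and has 1 library, so that differences have no replicate check and tests on reads compare these libraries. The study describes a loss of most of the Cast Vκ region in late-passage cells of clone 3, and the passage used for this library is not given in the sources used here. In this library 80 segments had at least 3 Cast reads, against 73 to 76 in the other clones. It also held the most Cast reads, 80861 against 15886 to 44182. Whether part of its cells carried the loss was not tested.

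A κ light chain gene is assembled when the RAG recombinase joins one Vκ segment to one Jκ segment, and each pre-B cell carries a maternal and a paternal copy of the locus on which this can happen. RAG recognises a recombination signal sequence (RSS) next to each segment, made of a heptamer, a spacer and a nonamer. Vκ segments that point in the same direction as the Jκ segments join by deleting the DNA in between, and those that point the other way join by inverting it. Vκ segments fall into families of related sequence, so that family members encode similar variable domains.

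The segments that set clone 3 apart are shown by their RSS, because the RSS is the sequence that the recombinase reads and because several of these segments share one. The sequences are those of the B6 reference (mm10, GENCODE M21 annotation), 5′ to 3′ on the strand of the segment, with the heptamer and the nonamer in capitals and the spacer in lower case. They were not read from the clones, which all came from the same cross. The Cast sequences were not available here, and Igkv1-122, Igkv1-110 and Igkv8-19 were called (as defined below) on the Cast allele only. The Jκ segments and Cκ are on the plus strand of chromosome 6, with Cκ at chr6:70726435-70726966.
Igkv1-99 (plus strand, RSS at chr6:68542423-68542450): CACAGTGatgcaaaccctaACAAAAATG
Igkv6-13 (minus strand, chr6:70457473-70457500): CACAGTGcttcagcctcctACATAAGCC
Igkv1-132 (plus strand, chr6:67760414-67760441): CACAGTGatacagaccctaTCAAAAACT
Igkv1-122 (plus strand, chr6:68017489-68017516): CACAGTGatgcagaccctaACAAAAACA
Igkv1-110 (plus strand, chr6:68271268-68271295): CACAGTGatacagaccctaACAAAAATA
Igkv8-19 (minus strand, chr6:70340848-70340875): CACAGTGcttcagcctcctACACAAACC
Igkv12-98 (plus strand, chr6:68571236-68571263): CACAGTGattcaagccataACATAAACC
Igkv4-61 (minus strand, chr6:69416865-69416892): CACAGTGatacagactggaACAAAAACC
All 8 carried the heptamer CACAGTG, as did 95 of the 111 segments found in the annotation (85.6%). The RSS printed for Igkv8-19 was shared by 7 segments, among them Igkv8-28, Igkv8-30 and Igkv8-16. That printed for Igkv4-61 was shared by 13 segments, among them Igkv4-55, Igkv4-73 and Igkv4-86.

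The clone 3 library was the deepest of the 5, with 165679 reads, of which 84818 were on the B6 allele and 80861 on the Cast allele. The other libraries held 34291 (clone E93) to 119020 (clone 8) reads. The unit used below is the percent of an allele, that is the reads of a segment divided by all reads of that allele in the library. Since these percentages sum to 100 on each allele, a segment or family that takes more leaves less for the rest. The limit of detection was set at 3 reads, which is 0.00354% of the B6 and 0.00371% of the Cast allele in clone 3, and up to 0.0163% and 0.0189% in clone E93. The reads carry no molecular identifiers, so that this limit and the 95% intervals below cover counting error only. A segment was called higher in clone 3 when its percent of the allele was at least 2 times that of the highest other clone, and lower when the lowest other clone was at least 2 times it, with libraries under 3 reads set to 3 reads.

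Of the B6 segments, 99 had 20 or more reads summed over the clones, and 4 of these were called higher in clone 3 (4.04%), namely Igkv1-99, Igkv6-13, Igkv8-16 and Igkv1-132. Igkv1-99 took 0.284% of the B6 allele in clone 3, against 0.0302% in clone 4, 0.016% in clone 8, 0% in B52 and 0.0706% in E93. It stood 4.02 times (95% interval 2.30 to 7.03) above clone E93, the nearest clone, on 241 and 13 reads. Igkv6-13 took 0.975% in clone 3, against 0.194%, 0.163%, 0.279% and 0.158% in clones 4, 8, B52 and E93. Its 827 reads in clone 3 stood 3.49 times (interval 2.90 to 4.21) above clone B52, and on the Cast allele it had 0 reads in all 5 clones. Igkv1-132 took 1.06% in clone 3, against 0.524%, 0.417%, 0.22% and 0.511%. The distance to clone 4, the nearest, was 2.02 times (interval 1.75 to 2.32), close to the limit of 2. Igkv8-16 had 41 B6 reads in clone 3, 3 each in clones 4 and 8 and 0 in clones B52 and E93. Its 0.0483% was at least 2.97-fold higher than clone E93, whose 0 reads allow up to 0.0163%. Of its B6 reads, only 6 came from the other clones, so that Igkv8-16 passed the minimum only through clone 3, and 3 segments are called higher when the minimum is taken over the other clones. The call was lost for Igkv1-132 as percent of the library, for Igkv6-13 when the pre-B-cell pool joined the other clones, and for Igkv8-16 when a second library of clone 4 was used. Igkv1-99 and Igkv8-16 also drop out when segments under 3 reads in another clone are left out.

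In the other direction, 6 of the 99 B6 segments were called lower (6.06%), and 4 of them were members of the Igkv4 family. Igkv4-61 took 0.0554% of the B6 allele in clone 3, against 0.674%, 0.708%, 0.363% and 0.212% in clones 4, 8, B52 and E93. It stood 3.82 times (interval 2.50 to 5.84) below clone E93, on 47 and 39 reads. Igkv4-55 took 0.0365% against 0.0924% in clone E93 and up to 1.09% in clone 8, and stood 2.53 times (interval 1.40 to 4.56) below clone E93. Igkv4-61 is 96.9% identical to Igkv4-54, and Igkv4-55 is 96.6% identical to Igkv4-68, so that reads may be misplaced between these relatives. Igkv4-57-1 took 0.131%, and the nearest value was the 0.288% of clone B52, 2.20 times (interval 1.71 to 2.83) higher. Igkv5-37, of another family, took 0.046%, 2.25 times (interval 1.30 to 3.88) below the 0.103% of clone E93, a call lost with the pool. That of Igkv4-57-1 was lost with the second library of clone 4. The sixth segment, Igkv4-73, is annotated as a pseudogene, and its call rests on the limit of 3 reads. It had 6 reads in clone 3 and 2 in clone E93, so that only clones 4, 8 and B52 (0.457%, 0.844% and 0.0572%) can be told from its 0.00707% in clone 3.

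Igkv12-98, the remaining B6 segment and the only one called on both alleles, had 0 B6 reads in clone 3. The other clones had 79, 82, 30 and 12 B6 reads, or 0.17%, 0.11%, 0.066% and 0.0652% of the allele, so that clone 3 was at least 18.4-fold lower than the lowest of them. Its Cast reads numbered 17 in clone 3, which is 0.021% of the Cast allele, against 0.153%, 0.195%, 0.0846% and 0.107% in clones 4, 8, B52 and E93. The Cast value stood 4.02 times (interval 2.11 to 7.68) below clone B52. Igkv12-98 was thus the lowest of the 5 clones on both alleles, on which 75 segments could be compared. Its closest relative in the B6 sequence, Igkv12-89, is 84.4% identical.

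On the Cast allele, 4 of the 80 segments with enough reads were called higher in clone 3 (5%), Igkv8-19, Igkv8-28, Igkv1-122 and Igkv1-110. Igkv8-19 took 0.735% of the Cast allele in clone 3, against 0.0383%, 0.00905%, 0.207% and 0.208% in clones 4, 8, B52 and E93. This was 3.54 times (interval 2.49 to 5.02) the value of clone E93, on 594 and 33 reads. Igkv8-28 took 1.26% against 0.597%, 0.514%, 0.436% and 0.403%, 2.11 times (interval 1.73 to 2.56) the value of clone 4. These 2 segments are 97.6% identical, so that the split of reads between them is uncertain. Igkv1-122 took 2.41% of the Cast allele in clone 3, against 1.05%, 0.611%, 0.389% and 0.718%. It stood 2.31 times (interval 1.99 to 2.68) above clone 4. Igkv1-110 took 4.33%, the fourth largest share of the clone 3 Cast allele, against 2.09%, 1.02%, 0.825% and 2.12%. Its distance to clone E93 was 2.05 times (interval 1.83 to 2.29), and it is 97.5% identical to Igkv1-117. With median-of-ratios scaling, or with the pool among the other clones, Igkv8-28 and Igkv1-110 were no longer called.

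Among the Cast segments, 3 of 80 were called lower (3.75%), and only Igkv12-98 had a clear distance. Igkv4-92 took 0.0161% in clone 3 and 0.0378% in clone E93, on 13 and 6 reads, and the interval of this 2.35-fold distance, 0.893 to 6.18, includes no difference. The same segment took 0.37% of the B6 allele in clone 3, the highest of the 5 clones. Igkv17-121 had 1 Cast read in clone 3 and 0 in clones B52 and E93, all under the limit of 3 reads, so that its call rests on the depth of the libraries and no fold is given. On the B6 allele Igkv17-121 had 627 reads in clone 3.

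**Figure D1:**
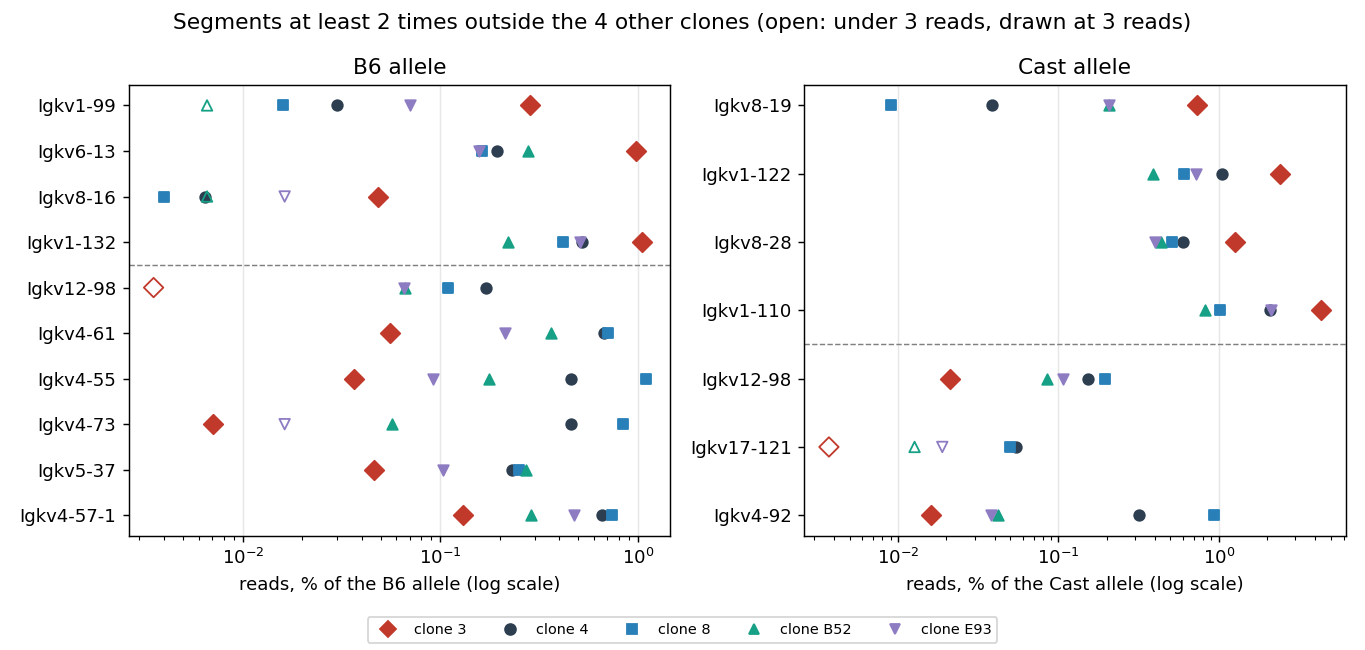
Percent of the B6 (left) and Cast (right) allele, on a log axis, of each called segment in the 5 clone libraries, with segments called higher above the dashed line and lower below it. Clone 3 (red diamonds) is drawn beyond all other clones (for Igkv17-121 only through the limit of 3 reads), by 4.02 times for Igkv1-99 on B6 and 3.54 times for Igkv8-19 on Cast, and open markers are libraries under 3 reads, drawn at 3 reads.

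The same rule applied to each clone in turn called 10 B6 segments for clone 3, 2 for clone 4, 15 for clone 8, 19 for B52 and 6 for E93. For Cast it called 7 for clone 3 and 2, 19, 10 and 3 for the others. Clone 3 was therefore in the middle of the 5 clones by the number of segments that set it apart. A measure of the error between libraries of 1 clone exists for clone 4 only, from a shallow second library of 10958 reads in the time course. The 2 clone 4 libraries differed by at least 2 times at 29 of 93 B6 segments (31.2%) and at 28 of 63 Cast segments (44.4%), so that a factor of 2 between single libraries is within what was seen for 1 clone.

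By family, no family was 2 times outside the other clones on either allele (0 of 19 on B6 and 0 of 19 on Cast), and the pattern lay in the order of the clones. On the B6 allele, Igkv1, Igkv6 and Igkv8 were highest in clone 3 and Igkv4 was lowest, among the 13 families that reached 2% of the allele in any clone. Igkv1 took 17.5% of the B6 allele in clone 3, against 7.60% in clone 4, 6.32% in clone 8, 5.38% in B52 and 14.8% in E93. Of its 9 segments with enough reads, 8 were highest in clone 3, where 21.2% of all B6 segments were. The median log2 ratio of these segments to the median of the other clones was 1.06, against -0.02 over all B6 segments. The exception was Igkv1-135, the leading B6 segment of clone 3 with 7.02%, which took 9.09% in clone E93. On Cast the family as a whole took 12.8% in clone 3, between the 12.6% of clone 4 and the 14.5% of E93. Of its 10 Cast segments with enough reads, however, 5 were highest in clone 3 and 0 lowest, against 27.5% and 8.75% of all Cast segments, and 2 of these, Igkv1-122 and Igkv1-110, were called higher. With the read minimum taken over the 4 other clones, 5 of 9 were highest, against 25.3%. Over all 10 Igkv1 Cast segments with enough reads the median log2 ratio was 1.02, against 0.15 over all Cast segments.

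The Igkv4 family, whose 30 segments lie in blocks 2 and 3 of the locus on the minus strand, took 12.2% of the B6 allele in clone 3. It took 27.5% in clone 4, 35.1% in clone 8, 20.7% in B52 and 16.6% in E93. In the shallow second library of clone 4 it took 18.6%, so that this share also moved between libraries of 1 clone. Of its 30 B6 segments, 18 were lowest in clone 3 and 1, Igkv4-92, was highest, where 21.2% of all B6 segments were lowest. Their median log2 ratio was -1.11. The 13 segments with the RSS of Igkv4-61 included 10 of these 18, and 3 of them were called lower. On the Cast allele the Igkv4 family took 8.09% in clone 3, between the 7.17% of clone 4 and the 12.9% of clone B52. Of its 18 Cast segments, 4 were lowest in clone 3, where 8.75% of all Cast segments were, and the median log2 ratio was 0.05, against 0.15 over all Cast segments.

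On the Cast allele, Igkv6 and Igkv8, whose segments alternate near the Jκ end of the locus, were the families, of those reaching 2% of the allele in any clone, that were highest of the 5 clones in clone 3. Igkv6 took 13.5% of the Cast allele in clone 3, against 5.64%, 0.867%, 5.67% and 9.57% in clones 4, 8, B52 and E93. Igkv8 took 9.31%, against 3.48%, 1.53%, 3.98% and 5.72%. In the pre-B-cell pool Igkv6 took 13.8% of the Cast allele, above clone 3, and Igkv8 took 4.30%. All 7 Igkv8 segments with enough Cast reads and 5 of the 6 Igkv6 segments were highest in clone 3, where 27.5% of all Cast segments were. Igkv8-18 and Igkv6-14 reached 20 reads only through clone 3 and so had to be high there. With the minimum taken over the 4 other clones, 6 of 6 Igkv8 and 4 of 5 Igkv6 segments were highest in clone 3, against 25.3% of all Cast segments. Over all 7 and 6 segments, with Igkv8-18 and Igkv6-14 among them, the median log2 ratio was 1.40 for Igkv8 and 1.36 for Igkv6. Igkv6-20, the second segment of the clone 3 Cast allele, took 6.61%, against 2.88%, 0.561%, 1.75% and 4.01%. It is 98.7% identical to Igkv6-29, also highest in clone 3, so that the split of reads between these 2 is uncertain. Igkv6-25 took 3.40% against 1.17%, 0.0656%, 1.37% and 2.29%, and Igkv8-30 took 3.46% against 0.706%, 0.265%, 1.44% and 2.38%. The exception was Igkv6-32, at 1.87% in clone 3 and 2.27% in clone E93. For B6 the same families were also highest in clone 3, by a small margin: Igkv6 took 15.7%, with 15.3% in clone 4, and Igkv8 took 10.0%, with 9.46% in clone 4. As percent of the library clone 4 was above clone 3 for both (11% and 6.79%, against 8.05% and 5.14%), while the order for B6 Igkv1, B6 Igkv4, Cast Igkv6 and Cast Igkv8 held on that scale and with median-of-ratios scaling.

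Igkv3, next to the Jκ segments, divided the other clones, and clone 3 lay between them. It took 17.3% of the B6 allele in clone 3, against 5.96% and 7.85% in clones 4 and 8 and 42.8% and 20.5% in clones B52 and E93. Of the Cast allele it took 11.5% in clone 3, against 0.175% and 0.177% in clones 4 and 8 and 44.7% and 29.8% in clones B52 and E93. Igkv3-12 made up most of the clone 3 Cast value, with 6.04% of the allele, while Igkv3-7, which led in clones B52 and E93 with 27.7% and 21.9%, took 2.27%. The Igkv10 family was lowest in clone 3 on Cast only, at 0.779%, against 1.30% to 2.62%. Clone E93 set most of these limits. Without it 6 families would be 2 times outside the remaining clones, among them Igkv1 on B6 (2.31 times above the next clone) and Igkv6 and Igkv8 on Cast (2.39 and 2.34 times).

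**Figure D2:**
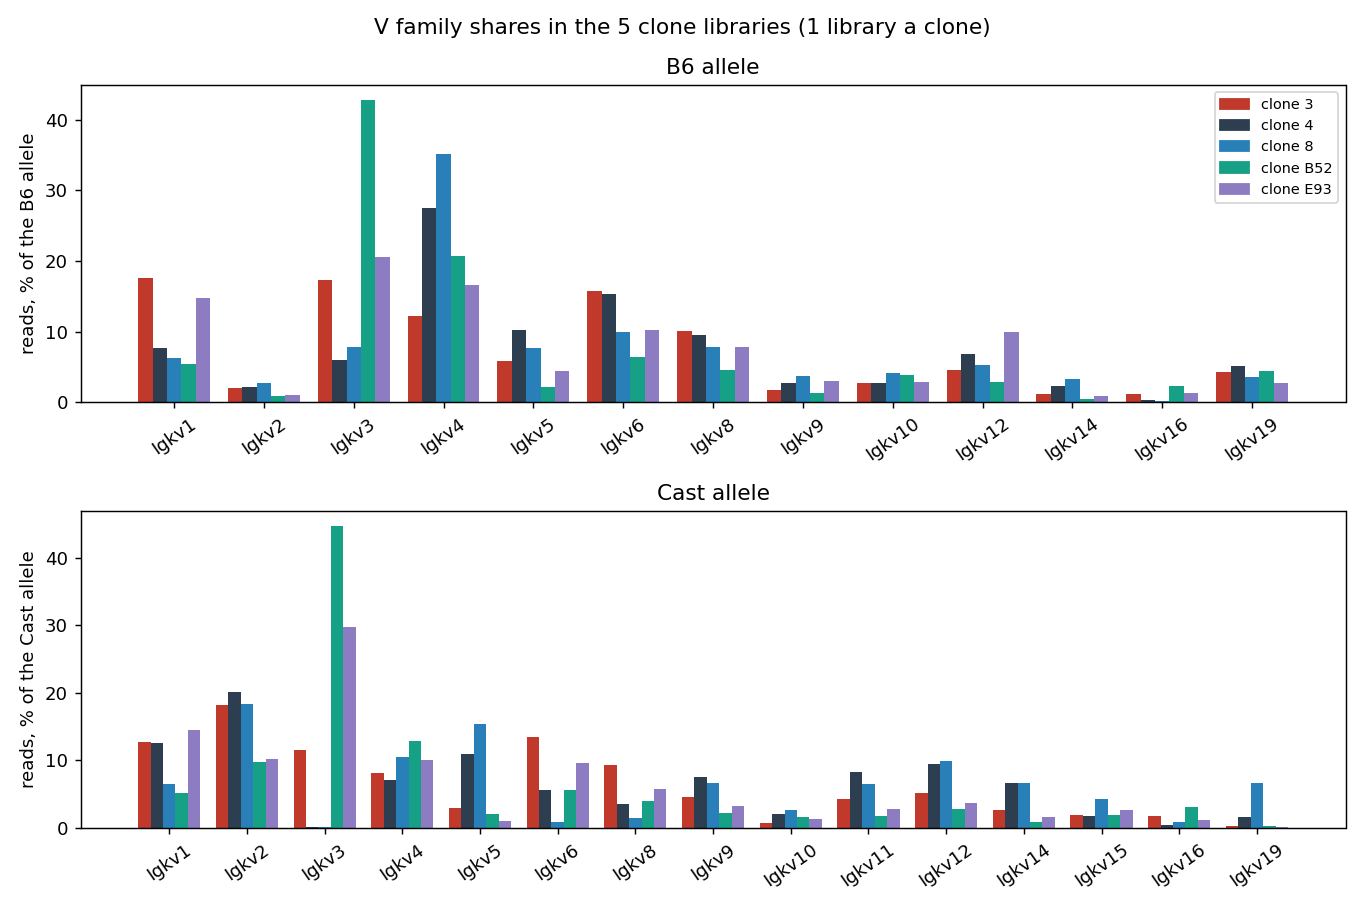
Percent of the B6 (top) and Cast (bottom) allele taken by each V family that reached 2% in any clone, with 1 bar for each of the 5 clone libraries. Clone 3 (red) has the lowest B6 Igkv4 bar, at 12.2%, the highest B6 Igkv1 bar, at 17.5%, and the highest Cast Igkv6 and Igkv8 bars, at 13.5% and 9.31%.

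By position, the segments were divided into 4 blocks of 28 in the order of the locus, block 1 being the most distal. Block 1 (Igkv2-137 to Igkv14-100) took 24.9% of the B6 reads in clone 3, the highest of the 5 clones (11.3% to 22.0% in the others). Block 2, from Igkv1-99 to Igkv4-68, took 14.1%, the lowest (16.0% to 26.7% in the others), and 15 of its 27 B6 segments were lowest in clone 3, against 21.2% of all B6 segments. For Cast, block 2 was again lowest in clone 3, at 7.07%, against 10.4% to 20.1%. Block 4, the Jκ-proximal one from Igkv6-32 to Igkv3-1, took 34.3% of the Cast reads, between 2.58% and 9.29% in clones 8 and 4 and 45.1% and 54.4% in clones E93 and B52. Within it 13 of 18 Cast segments were highest in clone 3 and 0 were lowest, against 27.5% and 8.75% of all Cast segments. All of these 13 but Igkv3-2 are Igkv6 and Igkv8 segments already counted above. With the minimum over the other clones, which leaves out Igkv8-18, Igkv6-14 and Igkv3-2, 10 of 15 were highest and 0 lowest, against 25.3% and 9.33%. The share of reads from minus-strand segments, those that join by inversion, was 49.3% on the B6 allele (40.5% to 71.9% in the others) and 41.1% on the Cast allele (30.2% to 50.5%). Clone 3 did not stand apart by this share on either allele.

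**Figure D3:**
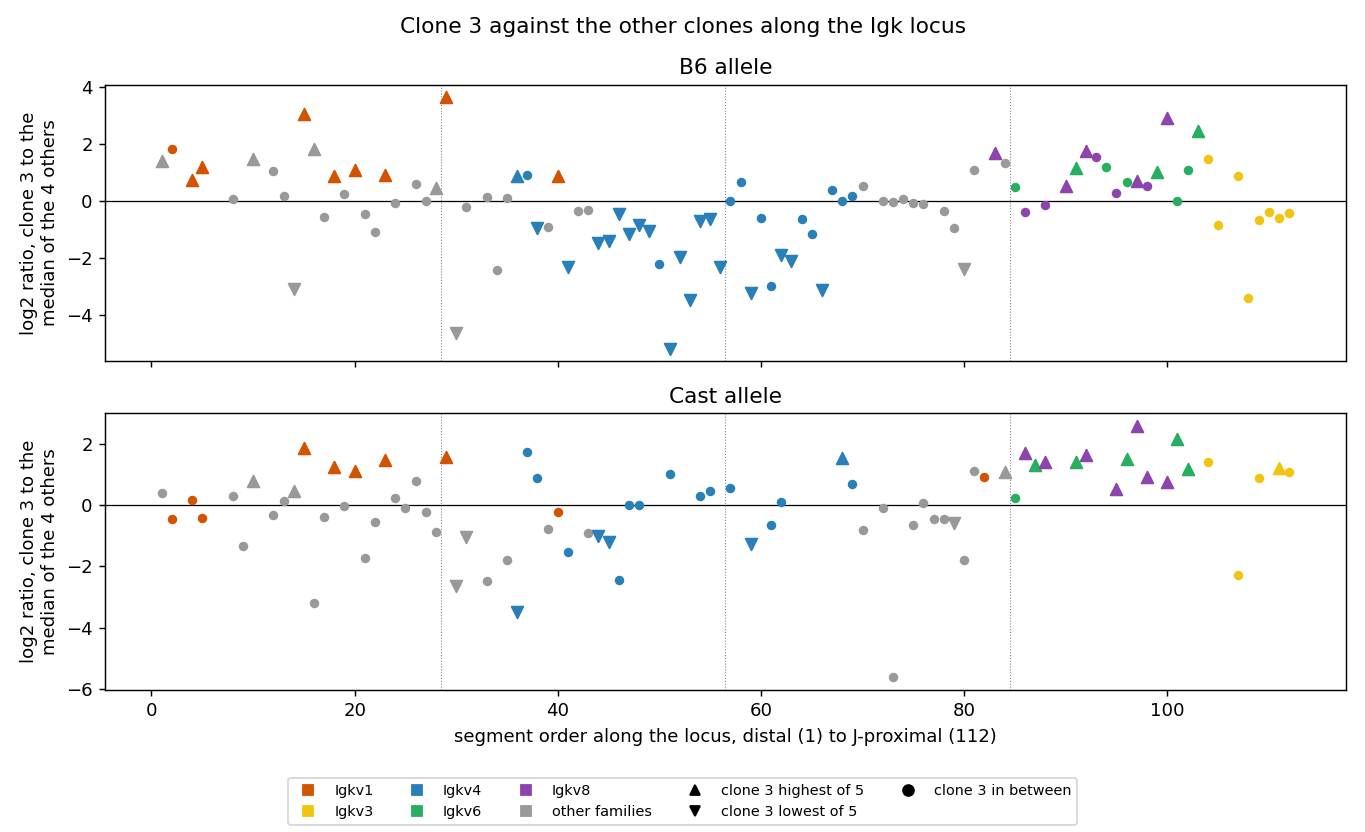
Log2 ratio of clone 3 to the median of the 4 other clones for each tested segment on the B6 (top) and Cast (bottom) allele, against segment order from distal to Jκ-proximal, coloured by family, with dotted lines between blocks of 28 segments. Triangles pointing up or down mark segments that were highest or lowest in clone 3, and the downward B6 triangles gather in Igkv4 (18 of 30 segments) while the upward Cast triangles gather in Igkv6 and Igkv8 (12 of 13, of which Igkv8-18 and Igkv6-14 were tested only through their clone 3 reads).

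**Figure D4:**
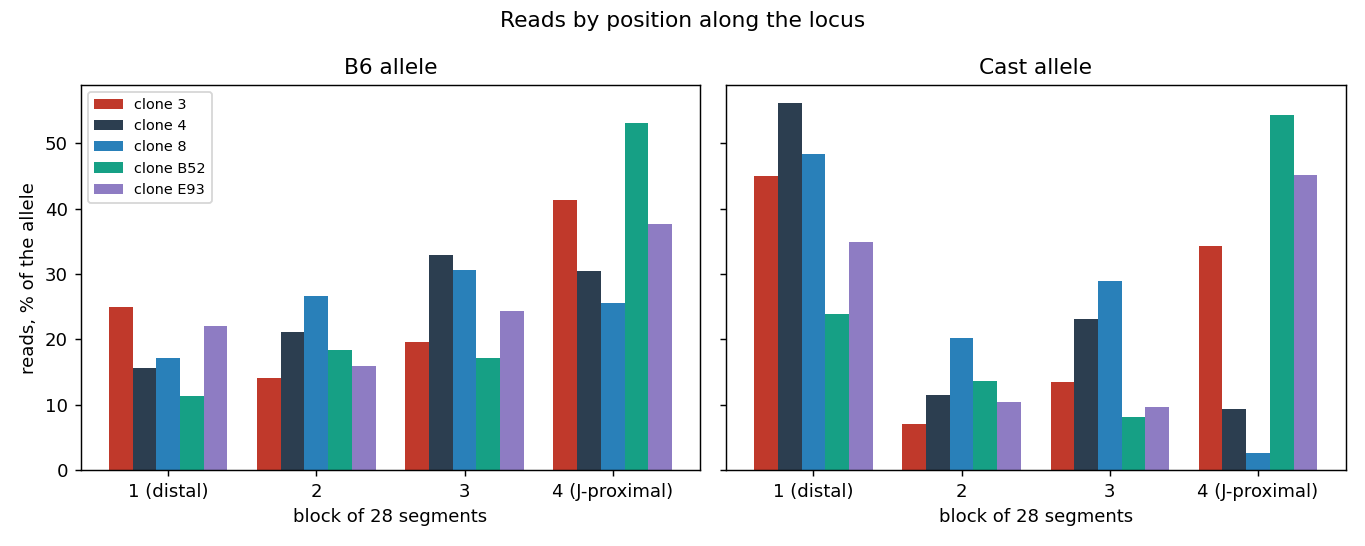
Percent of the B6 (left) and Cast (right) reads in each block of 28 segments along the locus, with 1 bar for each clone library. Clone 3 (red) is lowest in block 2 on both alleles, at 14.1% and 7.07%, and intermediate in the Jκ-proximal block.

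Over the whole library, the B6 allele gave 51.2% of the reads in clone 3 (95% interval 51.0% to 51.4%), the lowest of the 5 clones. Clone 4 had 71.8%, clone 8 had 62.9%, clone B52 had 65.8% and clone E93 had 53.7%, with a mean of 63.5% ± 7.54 (SD, n = 4 clones). Clone 3 lay 12.3 percentage points below this mean. An exact two-sided permutation test of which clone is set against the others gave p = 0.4. The reason is that clone 4, on the high side, lay further from the mean of its 4 other clones than clone 3 did. With 5 libraries this test cannot give less than 0.2, so that it could not separate clone 3 from the others at any size of difference. Clones 3 and E93 had nearly the same share. The study states that in clones 3 and 4 the B6 copy of the locus is the one replicated early. It relates this to the larger number of recombination events seen on that allele. In these libraries the B6 share was 51.2% in clone 3 and 71.8% in clone 4, and whether replication timing bears on it was not tested.

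Segment by segment, the B6 share of clone 3 was the lowest of the 5 clones at 35 of the 93 segments with at least 10 reads in each clone (37.6%) and the highest at 3 (3.23%). It lay more than 20 percentage points below all other clones at 5 segments (5.38%) and above them at 0 (0%). Igkv12-98 had a B6 share of 0% in clone 3 (interval 0% to 18.4%), against 73.8%, 48.8%, 60% and 41.4% in clones 4, 8, B52 and E93. Igkv9-123 had 8.33% (3.61% to 18.1%), on 5 B6 and 55 Cast reads, against 47.1%, 38.5%, 76.0% and 96.5%, of which those of clones 4 and 8 rest on 17 and 13 reads. Igkv4-58 had 25.6% (23.5% to 27.7%), on 413 B6 and 1203 Cast reads, against 77.5%, 64.3%, 70.0% and 46.2%. Igkv4-86 had 30.2% against 52.9% to 74.0%, and Igkv4-91 had 46.4% against 66.6% to 100%. Only Igkv4-58 had at least 50 reads in every clone.

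The lower share at single segments moved with that of the whole library. When both alleles were scaled to the same total in each library, Igkv12-98 alone was left more than 20 points below the other clones, and clone 3 was the lowest at 19 of the 93 segments and the highest at 8. Without clone E93, the clone with the nearest share, 14 segments were more than 20 points below.

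Cast was the majority allele in clone 3 but in no other clone at 8 of the 93 segments, and B6 at 0. These were Igkv4-91, Igkv4-86, Igkv4-78 and Igkv4-77, and Igkv8-30, Igkv8-28, Igkv8-21 and Igkv8-19, from families with 26 (Igkv4) and 9 (Igkv8) of the 93 segments. Igkv8-30 had a B6 share of 43.2% in clone 3, against 93.2%, 96.4%, 75.4% and 58.3% in clones 4, 8, B52 and E93. Igkv8-19 had 39.1%, against 96.1%, 98.7%, 60.2% and 51.5%. Igkv8-28, at 49.2% (interval 47.0% to 51.4%), and Igkv4-91, at 46.4% (41.5% to 51.5%), cannot be told from an even split in clone 3. In clone E93 the same holds for Igkv4-86 (36.7% to 68.5%), Igkv8-19 (39.8% to 62.9%) and Igkv4-77 (49.1% to 63.4%). It also holds in clone B52 for Igkv4-78 (48.3% to 57.7%) and Igkv8-21 (48.5% to 57.4%). Only at Igkv8-30 did the intervals of all clones lie clear of an even split.

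**Figure D5:**
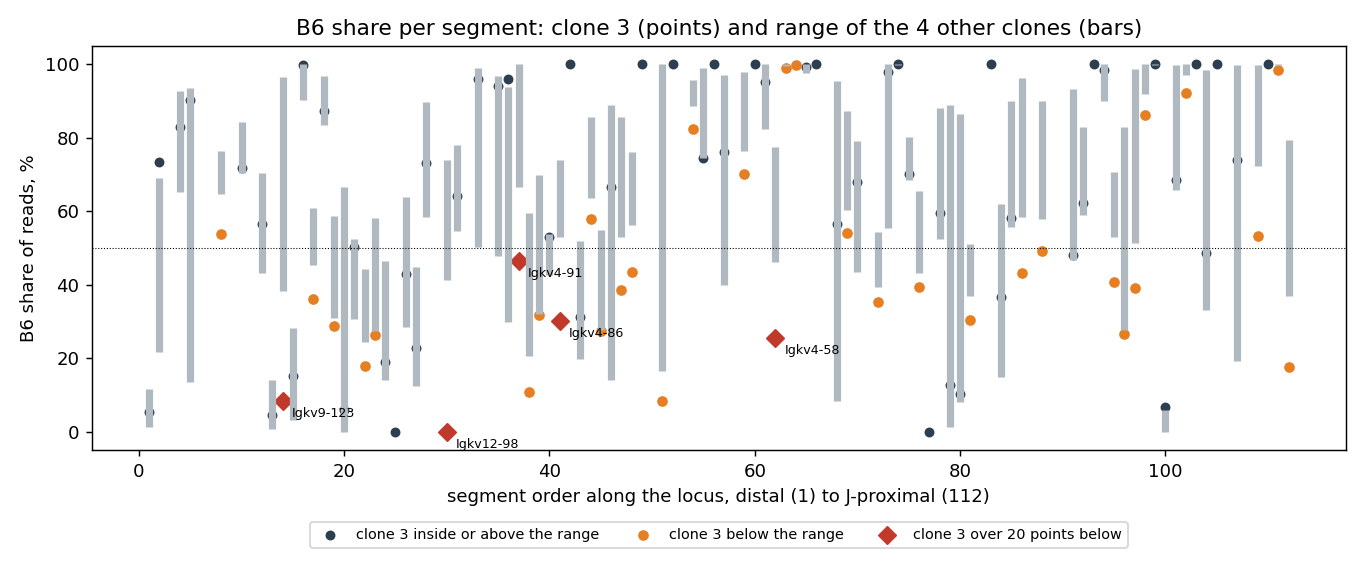
B6 share of the reads of each segment with at least 10 reads in every clone, in percent, against segment order from distal to Jκ-proximal, with clone 3 as points and the range of the 4 other clones as grey bars. The 5 red diamonds lie more than 20 percentage points below the bars and the orange points less far below, and together they make up 35 of the 93 segments.

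Of the 102 segments with at least 10 reads in clone 3, 35 had over 80% of reads on B6, 19 over 80% on Cast and 48 lay between. Clones 4, 8, B52 and E93 had 103, 101, 96 and 95 such segments. The numbers over 80% on Cast were 8, 13, 12 and 10 in these clones. Those over 80% on B6 were 52, 49, 39 and 33, so that clone E93 was below clone 3. The median B6 share over segments was 57.3% in clone 3, against 80.3%, 78.0%, 69.2% and 63.7%.

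A segment could be high in clone 3 on both alleles. Of the 75 segments tested on both, 10 were highest in clone 3 on each, Igkv17-127, Igkv1-122, Igkv1-117, Igkv1-115, Igkv1-110, Igkv1-99, Igkv6-25, Igkv8-24, Igkv8-19 and Igkv8-16. Igkv8-16 had to be high on B6, since it was tested there only through its clone 3 reads, and with the minimum over the other clones 9 of 70 segments were highest on each. For example, Igkv1-122 took 0.414% of the B6 allele in clone 3, against 0.0797%, 0.0214%, 0.0066% and 0.244%, and Igkv8-24 took 2.75% of B6 and 1.75% of Cast, above the 1.61% and 0.906% of the next clones. The lowest on both were Igkv12-98, Igkv4-81, Igkv4-80 and Igkv4-61. No segment was called higher on both alleles.

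The largest shares of the repertoire were mostly not those that set clone 3 apart. Among B6 segments Igkv1-135 (7.02%), Igkv3-7 (6.18%), Igkv3-12 (5.46%), Igkv19-93 (4.26%) and Igkv6-17 (3.35%) led. Of these, Igkv6-17 was the highest of the 5 clones, by a small margin over the 3.04% of clone 4. Among Cast segments Igkv2-137, the most distal Vκ segment, led with 14.1%, followed by Igkv6-20, Igkv3-12, Igkv1-110 and Igkv11-106 (3.97%). Igkv2-137 took as much of the Cast allele in clone 4 (14.4%), and 12.8%, 8.74% and 6.73% in clones 8, B52 and E93. As a percent of the whole library it was the highest in clone 3, at 6.86%, with 2.99% to 4.74% in the other clones. It was read mainly from Cast in every clone, with a B6 share of 5.28% in clone 3 and 1.26% to 11.7% in the others. The study puts the Cast loss in late-passage clone 3 down to a nonproductive joining of the most distal segment. Whether such a joining adds to these Igkv2-137 reads was not tested.

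Several segments followed by the study for allelic activity lay inside the range of the other clones by their percent of the allele, though not all did so by their B6 share. Igkv19-93 took 4.26% of the B6 allele in clone 3 (2.76% to 5.14% in the others) and 0.278% of Cast (0.107% to 6.71%). Igkv18-36 took 0.419% of B6 and 1.01% of Cast, and Igkv15-103 took 0.553% and 1.97%, each between the lowest and the highest other clone. Igkv16-104 took 1.22% of B6 and 1.71% of Cast, below clone B52 (2.30% and 3.07%) on both. Igkv6-32, at 2.47% of B6, and Igkv4-91, at 0.208% of B6, also lay inside. By B6 share, clone 3 was the lowest of the 5 clones at Igkv18-36 (30.4%, against 36.9% to 51.2%) and at Igkv4-91, as given above, and lay inside the range of the others at Igkv19-93, Igkv15-103, Igkv16-104, Igkv6-32 and Igkv7-33. As percent of the allele, Igkv7-33 was highest in clone 3 on Cast (0.255%, next clone 8 at 0.217%) but not on B6 (0.14%, with 0.168% in clone E93).

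As a whole, the clone 3 repertoire was closest to that of clone E93, by a small margin over clone 4. The Bray-Curtis measure, a distance from 0 (the same repertoire) to 1 (nothing shared), was 0.283 on B6 and 0.326 on Cast to clone E93, and 0.314 and 0.345 to clone 4. To clones 8 and B52 it was 0.395 and 0.404 on B6 and 0.443 and 0.433 on Cast. To the shallow second library of clone 4 it was 0.384 on B6 and 0.519 on Cast. The distance to clone 4 thus changed more with the library used than it differed from the distance to clone E93. Clone E93 was the nearest with either clone 4 library, but its margin over clone 4 is within what was seen between libraries of clone 4. Between the B6 and the Cast allele within clone 3 the measure was 0.481. This was larger than any of these distances on a single allele except that to the second clone 4 library on Cast (0.519). The Cast reads of clone 3 were the most evenly spread of the 5 clones, with 11 segments holding 50% of the reads, against 9, 9, 4 and 8 in clones 4, 8, B52 and E93. The second library of clone 4 also had 11, so that this rank depends on the clone 4 library used. For B6, 14 segments held 50% of the reads, against 17, 16, 7 and 12. Clone 3 also had the most reads, and the part of depth in the number of segments found was not tested.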

How the data were processed

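Igκ rearrangement repertoires were made from poly-A RNA reverse transcribed with a Cκ primer (5′-atgctgtaggtgctgtcttt-3′) and amplified by ligation-mediated PCR (12 and 7 cycles). After quality trimming, the authors mapped reads by bowtie2 against a genome (mm10) that held B6 and Cast versions of each polymorphic site. HTSeq-count assigned them to Vκ segments. The deposited table holds these raw counts without normalization. Tool versions are not given in the sources used here. Reads of near-identical segments, and reads lacking a polymorphism, could be lost or misplaced at the mapping step, which affects the split between relatives and alleles.

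Percentages of the allele, B6 shares, 95% Wilson intervals and log-scale intervals of ratios were calculated in Python 3.11.15 (pandas 2.3.3, SciPy 1.17.1, NumPy 2.4.6), sequence identities with Biopython 1.88 and figures with matplotlib 3.10.9. Segments entered with at least 20 reads over the 5 clones, families named reached 2% of an allele, and B6 shares needed 10 reads in every clone. No count model was fitted, since no clone has replicate libraries. RSS and positions come from GRCm38 (mm10) with GENCODE M21, in which 111 of the 112 segments were found by name.

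Segments named are those called, the 5 largest on each allele in clone 3 and 8 segments followed by the study, among them Igkv2-137. Others (such as Igkv6-25, Igkv8-24, Igkv8-30, Igkv4-78 and Igkv1-117) were chosen after their values were seen. The members, lists and thresholds were chosen with earlier results of these data known. Alternatives varied the denominator, scaling, read minimum, limit of detection, factor, comparison clones and leading segment. The nuclear RNA and ATAC-seq samples were not analysed here.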

Additional observations from a re-analysis of the deposited data

Results flagged for a closer look

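Among 74 values checked over the 5 clones (named segments and families as percent of an allele, and B6 shares), 5 had clone 3 so far from the others that the gap to the nearest clone exceeded 0.71 of the whole range. Chance flags about 1 in 20 groups where values are not chosen for a gap, but these 5 segments had been called for their distance to the other clones, so that this rate does not apply and the gaps are a description. Of the 74 values, 7 had such a gap for any clone. On the B6 allele these were Igkv1-99, at 0.284% in clone 3 and 0% to 0.0706% in the others, Igkv6-13, at 0.975% and 0.158% to 0.279%, and Igkv8-16, at 0.0483% and 0% to 0.00646%. On the Cast allele they were Igkv8-28, at 1.26% in clone 3 and 0.403% to 0.597% in the others, and Igkv8-19, at 0.735% and 0.00905% to 0.208%. The gap was 0.851 of the range for Igkv6-13, 0.773 for Igkv8-28, 0.751 for Igkv1-99 and 0.726 for Igkv8-19. For Igkv8-16 it was 0.866 with 0 reads taken as 0%, but the 0 reads of clone E93 allow up to 0.0163%. Its gap is therefore not exact and cannot be ranked among the others. Igkv8-16 also passed the read minimum only through clone 3. Clone 3 was the high value in each case.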

How the results depend on the processing

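No paired analysis was possible because each clone has 1 library and no replicate numbers. Of the called segments, 0 turned in direction against the median of the other clones under any alternative run. Called segments lay beyond all 4 other clones by the rule. Alternatives that changed only the factor, the read minimum or the comparison clones could therefore not turn them, and this count is no support for the calls. The number of B6 segments called higher (4) went to 11 with a factor of 1.5, 2 with a factor of 3 and 21 against the median of the other clones, and that called lower (6) to 10, 2 and 22. On Cast, the number higher (4) went to 9, 1 and 22 under these settings, to 7 as percent of the library, and to 2 each with median-of-ratios scaling and with the pre-B pool added to the other clones, and the number lower (3) went to 5 with a factor of 1.5 and 16 against the median. Leaving out each other clone in turn gave 5 to 9 and 6 to 12 segments on B6, 4 to 11 and 2 to 4 on Cast, 5 to 14 segments with a lower and 0 to 1 with a higher B6 share, and 0 to 6 families, with the highest counts without clone E93 except for the higher B6 share (without clone B52). Beside the factor of 3 and the read minimum of 100, calls were lost for Igkv1-132 on B6 as percent of the library and with median-of-ratios scaling, Igkv1-110 and Igkv8-28 on Cast with that scaling and with the pool, Igkv6-13 and Igkv5-37 on B6 with the pool, Igkv4-57-1 and Igkv8-16 on B6 with the time course library of clone 4 (in place of the other library, or beside it as chosen after seeing the data), Igkv4-92 on Cast as percent of the library, Igkv4-73 on B6 with a limit of 1 read, and Igkv17-121 on Cast without clone 8. The cause was not tested.

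Segments with a lower B6 share numbered 1 with at least 50 reads, 13 at 10 percentage points and 1 with alleles scaled to the same total. The B6 share of reads was 54.8% without Igkv2-137, 50.6% over segments read on both alleles and 57.8% as the mean over segments. Clone 3 was the lowest of the 5 clones each time, with the next clone at 55.3%, 52.7% and 62.5%. Without Igkv2-137 the distance to the next clone was thus small. Without Igkv2-137, the minus-strand share was 49.6% on B6 and 47.8% on Cast, the distal block 24.3% and 36.05%, and the Jκ-proximal block 39.9% on Cast. With functional genes only, the minus-strand share was 48.8% and 42.4%, the Jκ-proximal block 41.9% and 37.0%, and the Cast distal block 42.7%. Leaving out segments under 3 reads in another clone, chosen after seeing the data, removed Igkv4-73 and Igkv17-121 from the lower calls, and Igkv1-99 and Igkv8-16 from the higher B6 calls (2 left), since clone B52 had 0 reads of both. Taking the read minimum over the 4 other clones only, also chosen after seeing the data, left 3 and 6 B6 and 4 and 3 Cast calls. The main limits are 1 library a clone, unequal depth and PCR reads without molecular identifiers.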
